A study of Homo sapiens with 47 samples.

Results

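The 9 genes described here encode the enzymes that carry tryptophan along the kynurenine route: IDO1, TDO2, AFMID, KMO, KYNU, KYAT1, KYAT3, HAAO and QPRT. They were taken by gene symbol from 62703 genes listed in the RNA tables, and marks were read at their starts among 19535 chromatin regions. The cells were PC3, an established human prostate cancer line, made to overexpress DDC (DDC OE), SLC6A4 (SLC6A4 OE) or an empty vector (Empty Vector OE, here EV). DDC is the decarboxylase of aromatic amino acids that completes serotonin synthesis from 5-hydroxytryptophan. SLC6A4 takes serotonin up from outside the cell. Another assay, CUT&Tag for H3K4me3, also covered SLC6A4 cells carrying an shRNA against TGM2. RNA and ChIP each had 3 libraries per line, and the same EV libraries served both comparisons against EV. The ChIP antibodies were against trimethylated lysine 4 of histone H3 (H3K4me3), a mark of active promoters, and against the same tail with serotonin bound to the neighbouring glutamine (H3K4me3Q5ser). No label says whether replicates were separate cultures or clones, so p-values measure the spread between these libraries, which may be technical.

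Most dietary tryptophan is broken down through kynurenine. IDO1, induced by interferon gamma in many cell types, or TDO2, the liver enzyme, opens the ring of tryptophan, and AFMID removes the formyl group to give kynurenine. KMO hydroxylates kynurenine, KYNU cleaves kynurenine and 3-hydroxykynurenine, KYAT1 and KYAT3 turn kynurenine into kynurenic acid, and HAAO and QPRT lead on through quinolinate to NAD. Kynurenine and kynurenic acid are ligands of the aryl hydrocarbon receptor, and loss of tryptophan through IDO1 is known for restraining T cells.

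The main pattern was a fall of RNA at 3 of these enzymes. IDO1 and KYNU RNA fell in both lines, to 44.5% and 35.7% of EV in DDC and to 18.02% and 24.6% in SLC6A4. KMO RNA fell in DDC, to 45.0% of EV, and was 109% of EV in SLC6A4. These RNA percentages are fold changes fitted on log2(value + 1), not ratios of mean reads. IDO1, KMO and KYNU rest on few reads. In DDC the IDO1 and KMO calls were lost with DESeq2 (adjusted p = 0.0853 and 0.0675) and on leaving out single libraries. AFMID, KYAT1 and KYAT3 did not pass the test in either line. HAAO, TDO2 and QPRT had between 0 and 1 read in all 9 libraries together. At the starts of IDO1 and KMO the serotonylated mark fell in both lines, by more than the H3K4me3 signal did. Input chromatin in DDC was also lower there, at 60.1% of EV at IDO1 and 87.7% at KMO (ratios of means), and its part was not tested.

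Promoter sequence divided the members into CG-poor and CG-rich. In the RefSeq promoter table (GRCh38.p14, 250 bases before to 50 after each start) 8 members matched and IDO1 did not. KMO, KYNU and TDO2 each held 1 CG dinucleotide in 300 bases, against a median of 14 over 35116 promoters, and 3.96% of promoters held fewer. QPRT held 3. AFMID held 25, KYAT3 22, KYAT1 35 and HAAO 37. Of the members tested in RNA and matched, 2 were CG-poor: KYNU, which fell in both lines, and KMO, which fell in DDC only. The 3 CG-rich ones, AFMID, KYAT1 and KYAT3, did not pass. The share of CG-poor genes that fell was not computed over all genes, and a link of sequence to RNA was not tested. The motif TATAAA, searched on both strands, occurred in KMO, TDO2, AFMID and KYNU, and 11.5% of promoters in the table held it. TTCNNNGAA, the palindromic form bound by STAT factors, matched at 2 places in KYNU and at none in the other 7 members, and 7.66% of promoters held it. A match is a run of letters and no evidence of binding.

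The 250 bases upstream of the outermost annotated start are shown for KMO and KYNU, whose RNA fell, and for the silent TDO2 and HAAO, as the contrast between CG-poor and CG-rich. Each was read from the hg38 genome, 5′ to 3′ on the gene's strand, with CG dinucleotides in capitals. The KMO, KYNU and TDO2 stretches hold 1, 1 and 0 such pairs, and that of HAAO holds 30.
KMO, chr1:241531884-241532133, plus strand: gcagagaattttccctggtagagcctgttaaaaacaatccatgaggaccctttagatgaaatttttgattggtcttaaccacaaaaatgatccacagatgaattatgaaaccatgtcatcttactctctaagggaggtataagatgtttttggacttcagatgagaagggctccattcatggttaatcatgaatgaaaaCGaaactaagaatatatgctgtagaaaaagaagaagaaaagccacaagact
KYNU, chr2:142877407-142877656, plus strand: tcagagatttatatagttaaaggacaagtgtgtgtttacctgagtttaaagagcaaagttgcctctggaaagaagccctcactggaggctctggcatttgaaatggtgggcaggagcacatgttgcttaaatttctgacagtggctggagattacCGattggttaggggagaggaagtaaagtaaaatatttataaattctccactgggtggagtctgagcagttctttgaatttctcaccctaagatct
TDO2, chr4:155903443-155903692, plus strand: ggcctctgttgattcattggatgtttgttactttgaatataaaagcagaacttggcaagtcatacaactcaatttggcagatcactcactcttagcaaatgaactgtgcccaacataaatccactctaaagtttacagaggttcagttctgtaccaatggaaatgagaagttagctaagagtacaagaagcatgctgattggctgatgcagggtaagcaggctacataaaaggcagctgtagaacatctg
HAAO, chr2:42792594-42792843, minus strand: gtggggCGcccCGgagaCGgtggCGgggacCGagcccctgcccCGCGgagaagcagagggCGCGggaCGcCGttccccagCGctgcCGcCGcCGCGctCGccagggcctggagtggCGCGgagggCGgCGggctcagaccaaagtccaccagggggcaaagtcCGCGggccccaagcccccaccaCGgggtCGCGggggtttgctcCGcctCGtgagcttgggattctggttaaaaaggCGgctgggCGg
The 30 bases just before the RefSeq start of KMO carry the TATAAA run, here in capitals.
KMO, chr1:241532348-241532377, plus strand: gTATAAAaactcagagaaatcagtgtgtag

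RNA libraries held 17.3 to 21.7 M reads (M, 1000000) in genes. DDC RNA averaged 26.8 ± 3.43 normalised reads in the DDC line against 0.281 ± 0.487 in EV (SD, n = 3), and SLC6A4 RNA averaged 111.6 ± 21.7 in its own line against 0.297 ± 0.514, as the labels say. TGM2, the transglutaminase that attaches serotonin to H3, fell by 0.49 on the log2 scale in DDC (adjusted p = 0.00264, limma) and rose by 0.73 in SLC6A4 (adjusted p = 6.99e-09). Of the markers of other cells, CD3E and NKG7 had no read in any group, and 4 of 8 myeloid markers were at 0 in EV and in DDC. CD68, SERPINA1 and COL1A1 were present in each. So were 2 more myeloid markers at low counts, CSF1R with 29, 28 and 26 reads in EV, DDC and SLC6A4, and CD14 with 7, 8 and 5. EV replicate 2 stood apart, with 20 reads of IGKC and 18 of IGLC2, immunoglobulin light chains that had 0 reads in the other 8 libraries. KRT5, a basal keratin, had 290 reads there, 593 in SLC6A4 replicate 1 and at most 2 elsewhere. These genes were picked after their values were seen.

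In EV cells, levels per kilobase of exon (normalised over the 9 libraries) ran from AFMID at 158 ± 2.11 normalised reads, through KYAT3 at 32.1 ± 6.65, to IDO1 at 6.99 ± 1.49, KMO at 5.80 ± 1.55 and KYAT1 at 5.197 ± 1.35, with KYNU at 1.80 ± 0.0721 (SD, n = 3). IDO1, KMO and KYAT1 lay within their spread of each other, and the other steps were larger than the SDs. KYNU's low place depends on length, since its annotated exons cover 17442 bases, against 2196 to 5946 for the other tested members. Before that division its EV mean was 30.6 normalised reads, above IDO1 at 23.8 and KYAT1 at 18.2 and near KMO at 33.7 (size factors of the DDC comparison). AFMID stood at the 93.4th percentile of genes with reads. The whole set of IDO1 reads was 114 over the 9 libraries, of KYNU 150 and of KMO 269, so their fold changes rest on few reads per library.

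IDO1, which takes the rate-limiting first step outside the liver, gave 24.1, 28.6 and 18.6 normalised reads in the EV libraries and 10.2, 10.7 and 8.77 in DDC. Every DDC library lay below every EV library. On log2(value + 1) the change was -1.17 (SE 0.30, adjusted p = 0.00816, limma over all genes tested). Without EV replicate 2, the library with immunoglobulin reads and the highest IDO1, it was -1.03 with an adjusted p of 0.0612. The authors' deposited table gives -1.26 with an adjusted p of 0.0853 for the same gene. In SLC6A4 the libraries gave 3.82, 1.87 and 6.14 against 25.3, 30.2 and 19.6 in EV, which carries other size factors in that table. Here too the groups did not overlap, and the change was -2.47 (SE 0.39, adjusted p = 0.000165), called in all 12 alternatives run. In bulk RNA, fewer cells with a transcript and less RNA per cell cannot be told apart.

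KYNU, the kynureninase, had the most even EV values of the fallen genes, 30.1, 29.7 and 32.1 normalised reads. DDC libraries gave 12.2, 12.9 and 6.82, and SLC6A4 libraries gave 9.54, 7.48 and 5.12 against EV values of 31.6, 31.3 and 33.8. All 6 overexpressing libraries were below all EV libraries. The log2 change was -1.49 in DDC (SE 0.29, adjusted p = 0.00083, limma) and -2.02 in SLC6A4 (SE 0.29, adjusted p = 7.64e-05). Each call was kept in all 12 alternatives. The authors' deposited table gives -1.53 with an adjusted p of 0.0113 in DDC.

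KMO, the monooxygenase of the outer mitochondrial membrane, gave 25.1, 32.9 and 43.1 normalised reads in EV and 16.3, 8.60 and 20.5 in DDC. The groups did not overlap, though each varied widely within itself. The change was -1.15 (SE 0.30, adjusted p = 0.00935, limma). It did not pass without EV replicate 3 (-0.96, adjusted p = 0.0664) or without DDC replicate 2 (-0.82, adjusted p = 0.0571), and the authors' deposited table gives -1.15 with an adjusted p of 0.0675. SLC6A4 libraries gave 35.3, 41.1 and 36.8 against 26.4, 34.7 and 45.4 in EV, inside the EV range. The SLC6A4 change was 0.12 (SE 0.22, adjusted p = 0.765).
KMO shares 1691 bases, 28.4% of its exons, with OPN3, an opsin gene on the opposite strand, and the strand used in counting is not given in the sources used here. OPN3 averaged 17.95 in DDC against 24.6 in EV (log2 change -0.46, adjusted p = 0.295) and 15.8 in SLC6A4 against 25.9 (-0.68, adjusted p = 0.0844). Its share of the KMO reads was not tested.

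**Figure D1:**
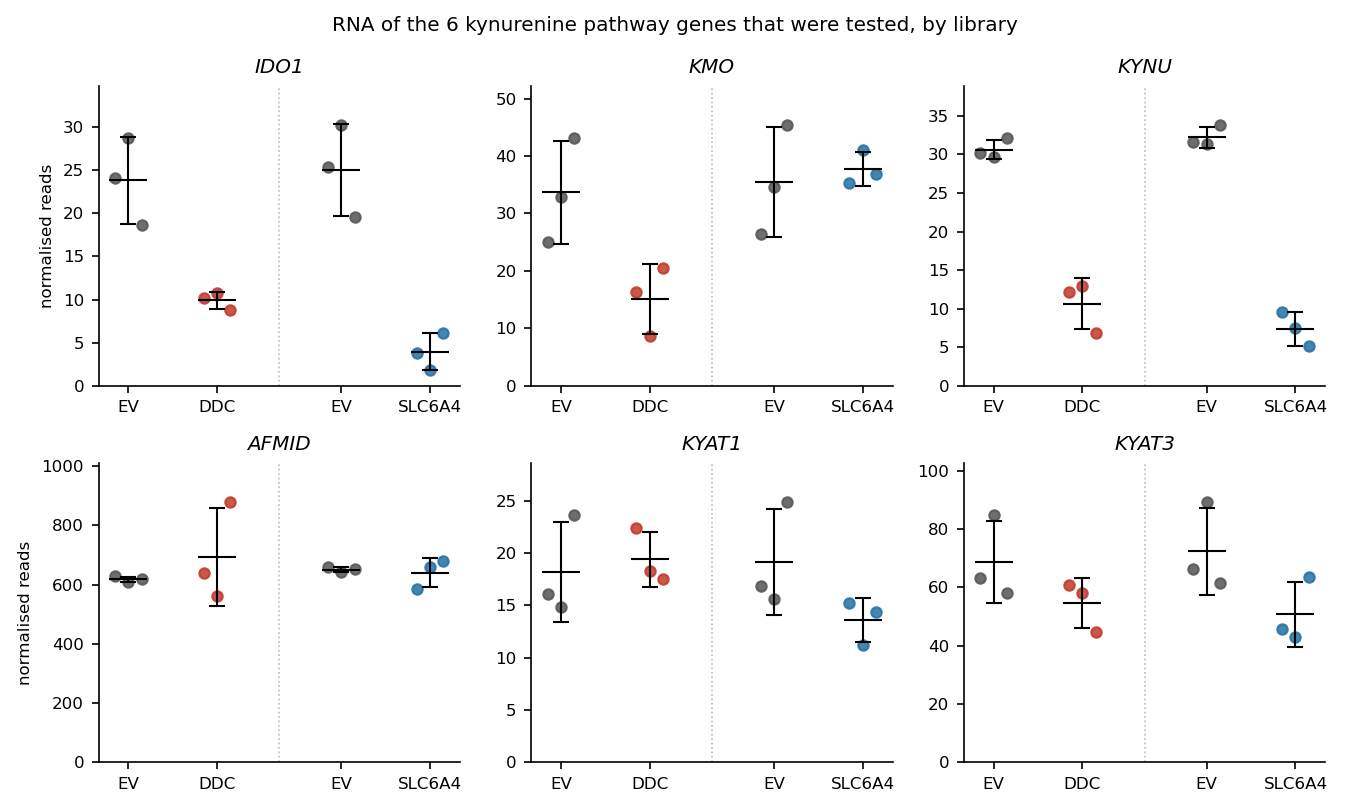
Normalised reads (vertical axes, from 0) of the 6 members with enough reads to test, by library (points), with mean and SD (black); EV and DDC are left of the dotted line, EV and SLC6A4 right of it, on the size factors of their own table. IDO1 and KYNU are below EV in all 6 overexpressing libraries, and KMO is below EV in the 3 DDC libraries and within the EV range in SLC6A4.

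The other tested members did not pass. AFMID, the formamidase, gave 628, 610 and 618 normalised reads in EV and 638, 563 and 880 in DDC, where 1 library carried the rise in the mean (log2 change 0.14, SE 0.12, adjusted p = 0.453). In SLC6A4 its change was -0.03 (SE 0.07, adjusted p = 0.855), the tightest estimate of the set. KYAT3, an aminotransferase, changed by -0.32 in DDC (SE 0.18, adjusted p = 0.254) and by -0.51 in SLC6A4 (SE 0.19, adjusted p = 0.0708). Without SLC6A4 replicate 3 the latter was -0.68 with an adjusted p of 0.0271. KYAT1 gave 0.11 in DDC (SE 0.28, adjusted p = 0.84) and -0.45 in SLC6A4 (SE 0.29, adjusted p = 0.319). Of KYAT1 exons 57.3% are shared with a readthrough gene on the same strand, and of KYAT3 exons 16.3% with RBMXL1, so reads may be divided between them.

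HAAO, which makes the precursor of quinolinate, had 0 reads in all 9 libraries. TDO2 had 1 read, in DDC replicate 2, and QPRT, which turns quinolinate into nicotinate mononucleotide, had 1 read, in EV replicate 1. A count of 0 allows up to 3 reads in a library, and these limits cover counting error only. No fold was computed for these 3 genes.

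Counted over the set, 3 of the 6 members tested were called at an adjusted p under 0.05 in DDC, all lower. Of all 13146 genes tested there, 17.4% were called, and 8.41% were called lower. In SLC6A4, 2 of 6 were called, both lower, with 19.4% of all genes called and 9.28% called lower. The median log2 change of the 6 was -0.74 in DDC and -0.48 in SLC6A4, against 0.01 over all genes in each. Only genes that passed a filter of 10 normalised reads in 3 libraries enter these figures. In SLC6A4 no library reached 10 for IDO1 or KYNU, so both passed the filter through EV alone. Not every DDC library reached 10 for IDO1, KYNU or KMO, so these also needed EV to pass. Genes kept by their EV values lean towards a lower result, so the counts describe the set and are no test of it.

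DDC and SLC6A4 were also set against each other directly, to test whether their effects differ. The fit ran over all 9 libraries, so EV entered the size factors, the filter and the estimate of spread, though not the difference itself. Outside EV, IDO1 and KYNU reached the 10 of that filter only in DDC replicates 1 and 2. KMO was lower in DDC, at 16.6, 8.80 and 20.9 normalised reads against 34.4, 39.9 and 35.9 (log2 difference -1.27, SE 0.28, adjusted p = 0.00305, limma). That call was kept in all 12 alternatives. IDO1 was higher in DDC, at 10.4, 11.001 and 8.95 against 3.72, 1.82 and 5.98 (1.29, SE 0.37, adjusted p = 0.0234). The IDO1 call was lost without DDC replicate 1 (adjusted p = 0.0585), DDC replicate 2 (0.0715) or SLC6A4 replicate 2 (0.122), and without the filter on low values (0.0611). KYNU did not pass (0.53, SE 0.32, adjusted p = 0.327). These 2 of 6 compare with 13.2% of all genes called.

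H3K4me3Q5ser regions lay at the starts of 5 members, within 1000 bp of the canonical transcript's start: IDO1, AFMID, KMO, KYAT1 and KYAT3. Of 20015 protein-coding genes, 62.8% had such a region and 55.1% an H3K4me3 peak. KYNU had an H3K4me3 peak of 937 bp at its start (chr2:142877682-142878618) and no H3K4me3Q5ser region, so the change of its marks was not measured here. TDO2, HAAO and QPRT had neither mark within 1000 bp. The 3 silent genes were thus the 3 without a listed mark, the CG-rich HAAO among them.

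The regions differed in what they hold. Those of IDO1 (chr8:39913216-39914705, 1490 bp) and KMO (chr1:241530720-241534158, 3439 bp) were narrow and held no start of another protein-coding gene among the neighbours checked, though a long noncoding RNA starts 338 bp from IDO1. AFMID's (chr17:78179942-78192914, 12973 bp) also covers the start of TK1, the thymidine kinase, 310 bp away. KYAT1's (chr9:128877770-128888607, 10838 bp) covers that of LRRC8A, a volume-regulated anion channel subunit, 183 bp away, and KYAT3's (chr1:88986585-88995849, 9265 bp) covers RBMXL1. Marks in these 3 cannot be assigned to 1 gene.

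At IDO1, H3K4me3Q5ser gave 11.6, 10.6 and 10.1 counts per 1000000 read pairs in regions (CPM) in EV, 5.53, 4.93 and 5.56 in DDC and 3.29, 3.54 and 3.39 in SLC6A4. The lines formed 3 separate groups. The log2 change was -1.01 in DDC (SE 0.10, adjusted p = 1.49e-16, edgeR quasi-likelihood test) and -1.65 in SLC6A4 (SE 0.10, adjusted p = 9.94e-31). In DDC 1.71% of all regions, and in SLC6A4 1.32%, had a lower log2 change. H3K4me3 at the same region gave 27.6, 21.5 and 26.1 in EV and 27.5, 20.96 and 20.7 in DDC, overlapping ranges (-0.12, SE 0.12, adjusted p = 0.543). In SLC6A4 it gave 15.2, 16.7 and 15.6, below EV (-0.66, SE 0.13, adjusted p = 6.75e-07).
Input chromatin, with no antibody, moved at IDO1 too: 20.4, 19.3 and 22.4 CPM in EV and 14.2, 10.97 and 12.2 in DDC, groups that did not overlap. The mean DDC input was 60.1% of EV, where H3K4me3Q5ser was 49.7% and H3K4me3 91.9%. These are 17 to 41 read pairs per library, and the part of input in the IDO1 result was not tested. IDO1's CPM was lower for H3K4me3Q5ser than for input in both lines with input values. SLC6A4 input was not analysed here.

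KMO had the clearest separation. H3K4me3Q5ser gave 76.0, 76.3 and 76.0 CPM in EV, 47.1, 49.4 and 49.0 in DDC and 32.3, 32.7 and 29.97 in SLC6A4. The log2 change was -0.65 in DDC (SE 0.03, adjusted p = 6.83e-34, edgeR) and -1.27 in SLC6A4 (SE 0.04, adjusted p = 1.15e-60). H3K4me3 followed the same order, at 139.1, 125.7 and 129.1 in EV, 107.6, 102.9 and 104.1 in DDC and 74.7, 72.5 and 74.2 in SLC6A4. Its change was -0.32 in DDC (SE 0.06, adjusted p = 4.27e-07) and -0.82 in SLC6A4 (SE 0.06, adjusted p = 3.68e-46). Input averaged 106 ± 6.55 in EV and 93.2 ± 4.27 in DDC (SD, n = 3), 87.7% of EV, and those groups did not overlap either. Its part in the KMO result was not tested. As at IDO1, KMO's CPM was lower for H3K4me3Q5ser than for input, at 76.1 against 106 in EV and 48.5 against 93.2 in DDC. Both are relative to the pairs within regions, with library scaling (TMM) fitted apart for mark and input.
KMO's marks and RNA thus ranked the lines differently. Both marks were lowest in SLC6A4, where RNA was within the EV range, and DDC, with intermediate marks, had the lowest RNA.

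**Figure D2:**
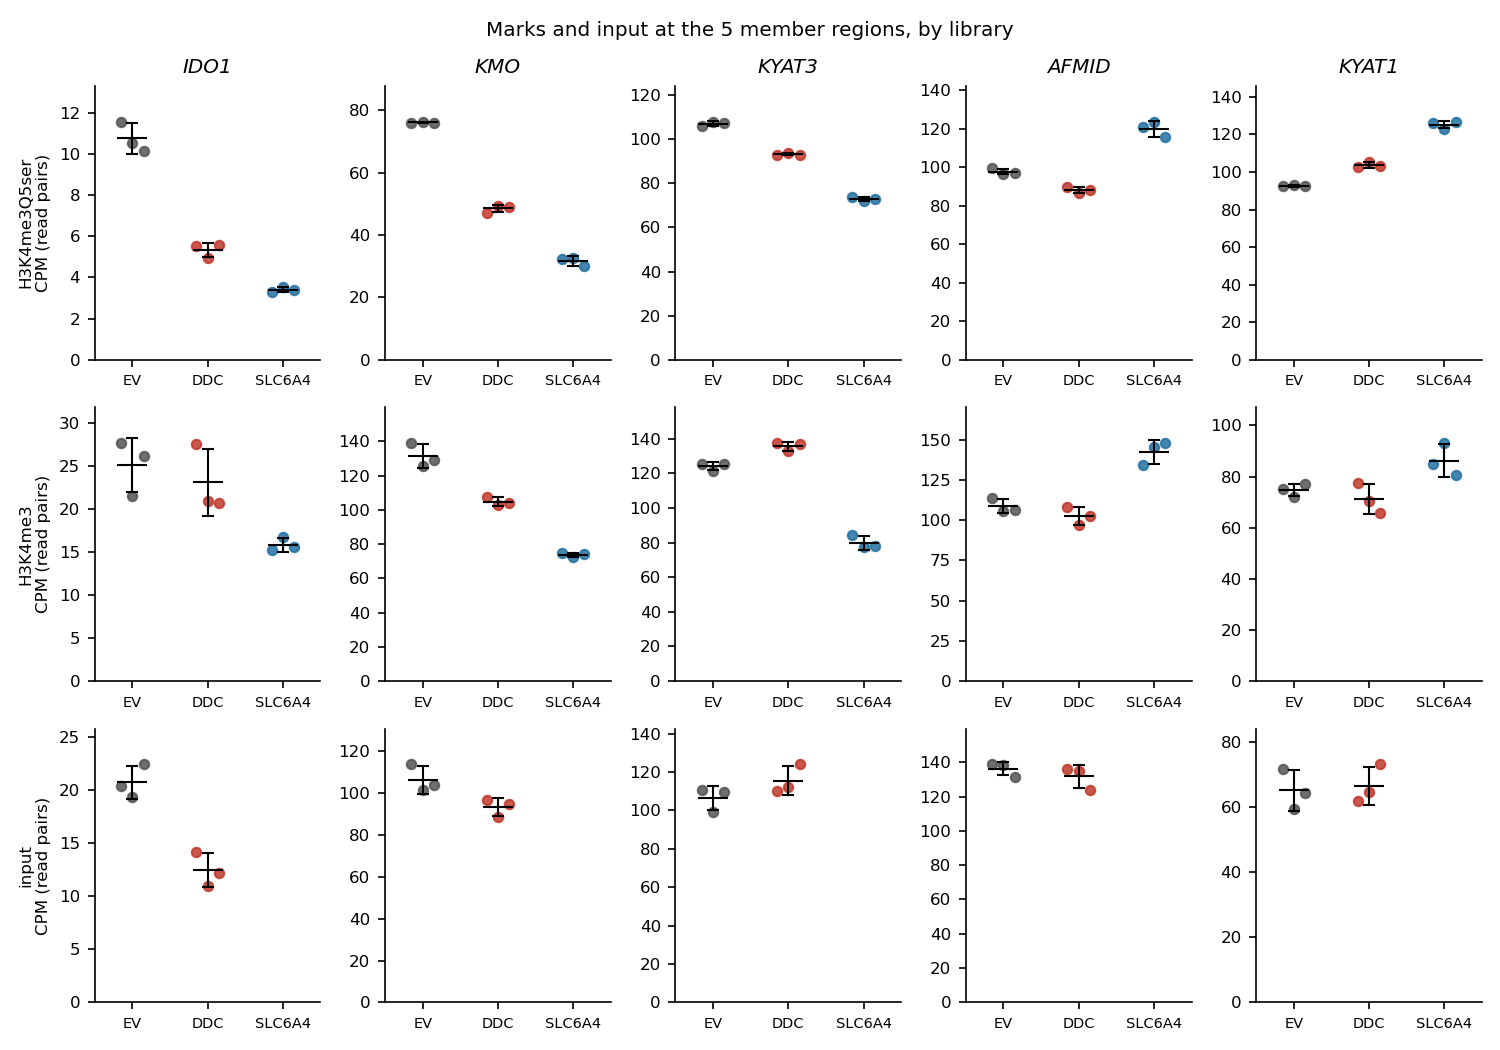
CPM in regions (vertical axes, from 0) for H3K4me3Q5ser (top), H3K4me3 (middle) and input (bottom, EV and DDC) at the regions of 5 members, by library (points) with mean and SD (black). H3K4me3Q5ser falls from EV through DDC to SLC6A4 at IDO1, KMO and KYAT3; input in DDC lies below EV at IDO1 and KMO.

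At the shared promoters the changes were smaller and ran both ways. KYAT3's H3K4me3Q5ser averaged 107 ± 0.992 CPM in EV, 93.2 ± 0.426 in DDC and 73.0 ± 0.974 in SLC6A4 (SD, n = 3), and fell by 0.20 and 0.55 on the log2 scale. Its H3K4me3 did not pass in DDC (0.13, SE 0.05, adjusted p = 0.067) and fell by 0.64 in SLC6A4. KYAT1's H3K4me3Q5ser averaged 92.7 ± 0.451, 104 ± 1.504 and 125 ± 2.102 in EV, DDC and SLC6A4, a rise of 0.16 and 0.43. AFMID's averaged 97.7 ± 1.45, 88.1 ± 1.62 and 120 ± 4.04, lower by 0.15 in DDC and higher by 0.29 in SLC6A4. TK1 RNA, whose start AFMID's region also covers, rose by 0.45 in DDC and 0.71 in SLC6A4, while AFMID RNA did not pass. In SLC6A4 the H3K4me3 change was 0.40 at AFMID and 0.20 at KYAT1, both called, and the latter was lost without SLC6A4 replicate 2 (0.15, adjusted p = 0.0637).

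Counts of called regions need their background. For H3K4me3Q5ser all 5 member regions passed in DDC, with 61.2% of all regions called, and all 5 in SLC6A4, with 82.5%. For H3K4me3 the count was 1 of 5 in DDC, KMO, with 17.6% of regions called, and 5 of 5 in SLC6A4, with 61.5%. DDC and SLC6A4 differed directly at all 5 regions for H3K4me3Q5ser (76.9% of all regions) and for H3K4me3 (60.2%). A call of either mark was therefore common over the genome except for H3K4me3 in DDC.

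Whether the serotonylated mark moved more than H3K4me3 was tested as an interaction. At IDO1 the H3K4me3Q5ser change was minus that of H3K4me3 was -0.88 log2 units in DDC (SE 0.16, adjusted p = 4.39e-06, edgeR) and -0.997 in SLC6A4 (SE 0.17, adjusted p = 1.55e-07). In DDC 1.10% of all regions had a lower value, and in SLC6A4 1.69%. At KMO the difference was -0.32 (SE 0.06, adjusted p = 4.33e-05) and -0.44 (SE 0.07, adjusted p = 8.17e-09). KYAT3 passed in DDC (-0.32, SE 0.06, adjusted p = 3.44e-06) and not in SLC6A4 (0.09, SE 0.06, adjusted p = 0.314). KYAT1 went the other way, at 0.25 in DDC (adjusted p = 0.0103, and 0.107 without H3K4me3 DDC replicate 3) and 0.23 in SLC6A4 (adjusted p = 0.00363). With scaling by total read pairs the latter was 0.145 (adjusted p = 0.0843). AFMID did not pass in DDC (-0.06, adjusted p = 0.579) or in SLC6A4 (-0.10, adjusted p = 0.159), but it did in SLC6A4 with that scaling (-0.19, adjusted p = 0.00414). Of the 5 regions, 4 were called in DDC, with 15% of all regions called, and 3 in SLC6A4, with 29.2%.

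**Figure D3:**
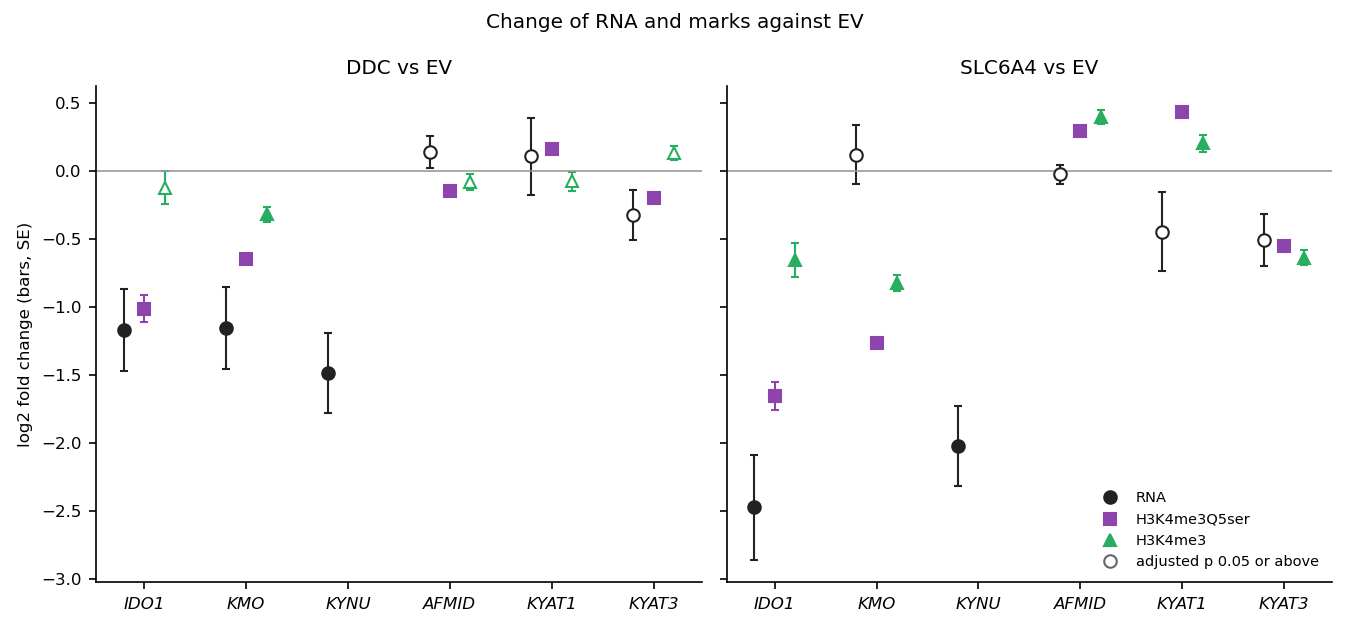
Log2 fold change against EV (vertical axis, bars show SE) of RNA, H3K4me3Q5ser and H3K4me3 for 6 members in DDC (left) and SLC6A4 (right); open symbols did not pass an adjusted p of 0.05, and KYNU has no region. IDO1 is low in RNA and H3K4me3Q5ser in both lines, while KMO in SLC6A4 has RNA at 0.12 beside H3K4me3Q5ser at -1.27.

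H3K4me3 was also profiled by CUT&Tag, in which a transposase cuts at the antibody's sites. Its table holds 1 library of the control, 1 of SLC6A4 OE and 1 of SLC6A4 OE with an shRNA against TGM2, so no test was made. It listed 8 peaks at the starts of 4 members, AFMID, KMO, KYAT1 and KYAT3. KMO's peak measured 9.41 CPM in control, 7.72 in SLC6A4 and 7.50 with TGM2 knockdown, ratios of 0.821 and 0.971. In ChIP, H3K4me3 at KMO was 56.2% of EV in SLC6A4. None of the 8 passed 2-fold in either comparison. The values cover only the 13882 peaks that the authors list as not called up, of which 0.0792% and 0.0864% passed 2-fold. Their 2163 called-up peaks carry no values here, so that selection limits the share, and nothing is read from the count. No called-up peak lay within 1000 bp of a member's start. IDO1 and KYNU had no CUT&Tag peak within 1000 bp.

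Genes around the pathway, from lists of its other steps, supplied context. Their counts stand beside 17.4% of all genes called in DDC and 19.4% in SLC6A4, and the lists are small. Of 7 other enzymes of the route 3 could be tested, and GOT2, a mitochondrial aminotransferase that can also make kynurenic acid, rose in both lines (0.37 and 0.43, adjusted p = 0.00301 and 0.000539, limma). Of 10 NAD genes, 1 rose and 2 fell among 9 tested in DDC, and 4 fell among 8 tested in SLC6A4. NAMPT, the key enzyme of NAD salvage, fell in both (-0.69 and -0.47). NNMT, which methylates nicotinamide, fell from 1472, 1523 and 1631 normalised reads in EV to 348, 363 and 427 in DDC (-2.02), and by 2.14 in SLC6A4. NADSYN1, the last step of NAD synthesis from tryptophan, rose in DDC (0.48) but did not pass with library size scaling (0.36, adjusted p = 0.0718), and NMRK1 and NMNAT2 fell in SLC6A4 (-0.56 and -0.84). NMNAT2 did not pass without EV replicate 3 (adjusted p = 0.0506) or SLC6A4 replicate 1 (0.0635).

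Of the 9 genes for entry and competing uses of tryptophan, 4 could be tested in each line. SLC3A2 rose in both (0.42 in DDC, 0.18 in SLC6A4), and SLC7A5, its partner in the large amino acid transporter that carries tryptophan and kynurenine, rose in SLC6A4 (0.43). The SLC6A4 calls were lost for SLC7A5 without SLC6A4 replicate 3 (adjusted p = 0.0846) and for SLC3A2 without EV replicate 2 or 3 or SLC6A4 replicate 2 or 3 (0.0595 to 0.11). SLC3A2 there also failed with library size scaling (0.15, adjusted p = 0.0805) and with the replicate block (0.0501). Among 4 tested genes of kynurenine sensing, AHR, the receptor, fell in both lines (-0.93, adjusted p = 0.0434, and -0.98, adjusted p = 0.0297). The AHR call was lost without EV replicate 1, EV replicate 3, DDC replicate 2 or DDC replicate 3 (adjusted p = 0.0692 to 0.182), and in SLC6A4 without EV replicate 1 or 3 or SLC6A4 replicate 2 or 3 (0.0763 to 0.123). CYP1B1, a classic target of AHR, gave 254, 209 and 199 normalised reads in EV against 12.2, 12.9 and 19.5 in DDC (-3.83, adjusted p = 3.26e-13) and was not called in SLC6A4 (-0.06, adjusted p = 0.759). The direct comparison of the lines gave -3.77 for it (adjusted p = 3.04e-13). Other genes of this list did not follow CYP1B1. CYP1A1, too low to test, had 18 reads in DDC and 12 in SLC6A4 against 4 in EV. TIPARP was not called in DDC (-0.26, adjusted p = 0.349, limma) or in SLC6A4 (-0.34, adjusted p = 0.227). Of 9 genes of interferon gamma signalling 6 were tested, and SOCS3, a feedback inhibitor, rose (0.81) and IFNGR1 fell (-0.69) in DDC, while IFNGR2 fell in SLC6A4 (-0.65). IFNGR1 did not pass without EV replicate 1 (adjusted p = 0.0622) or EV replicate 3 (0.0768). With DESeq2 on recovered reads, NADSYN1, AHR, SOCS3 and IFNGR1 in DDC and NMRK1, NMNAT2 and AHR in SLC6A4 did not pass (adjusted p = 0.0579 to 0.214).

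The genes whose log2 values followed the fallen members most closely over the 9 libraries were taken from 12166 genes by Pearson's r, as a description without a test. All share the same libraries and the same 3 lines. KYNU was closest to SMAD1 (r = 0.989), F2RL1 (0.984) and SULF2 (0.976). IDO1 was closest to SIRPB1 (0.975), SEMA4B (0.975) and XRRA1 (0.964). KMO, which alone of the 3 was low only in DDC, was closest to IFIT2 (0.976), BST2 (0.971) and NOL8 (0.971), the former pair being interferon-induced genes. Single markers of other tissues, SERPINA1 and COL1A1, moved beside these genes in both lines and made up most of their lists' sums. The rest of those lists were too low to test and ran both ways. In EV, DDC and SLC6A4, APOA1 had 16, 12 and 19 reads, TAT 0, 3 and 1, PDGFRB 4, 2 and 5, and COL1A2 6, 0 and 0. The hepatocyte list summed to 42.3 to 62.8 normalised reads in EV, 13.2 to 17.9 in DDC and 22.7 to 36.3 in SLC6A4, with ALB and TTR at 0. Its SERPINA1 fell by 2.17 on the log2 scale in DDC and by 0.96 in SLC6A4 (adjusted p = 3.08e-06 and 0.00506, limma). The fibroblast list summed to 40.3 to 48.4, 9.35 to 23.1 and 17.7 to 26.3, and its COL1A1 fell by 1.64 and 0.99 (adjusted p = 0.000295 and 0.00518). The line's own markers moved as well, in both directions. EPCAM fell by 1.91 in DDC and 0.43 in SLC6A4. KRT8 fell by 0.58 in DDC and did not pass in SLC6A4 (0.14, adjusted p = 0.257, limma). KRT18 fell by 0.46 in DDC and 0.69 in SLC6A4 (adjusted p = 0.0144 and 0.00373), with libraries that overlapped EV in each. VIM did not pass in DDC (0.20, adjusted p = 0.0668) and rose by 0.36 in SLC6A4 (adjusted p = 0.000509). Myeloid cells are a known source of IDO1, KMO and KYNU in tissue, and their list summed to 139.1 to 157 in EV, 152 to 186 in DDC and 122 to 134 in SLC6A4, mostly CD68. The part of these markers in the results was not tested.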

How the data were processed

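RNA values were signal deposited by the authors: reads per gene divided by a DESeq2 size factor of each pair of lines, per the file headers. The submitters' processing notes name HISAT2 2.1.0 and GRCh38. Reads were recovered from them (100% of values whole within 1e-06), and the p-values, scores (Wald) and log2 fold changes deposited by the authors served only for comparison. The design had foreseen counts. Normalised values were instead tested with limma 3.58.1 on log2(value + 1), keeping genes that reached 10 in 3 or more libraries. ChIP values were estimated counts of read pairs per region, made by the authors with featureCounts 2.0.3 per the file headers, rounded here and tested with edgeR 4.0.16 (quasi-likelihood, TMM). H3K4me3Q5ser libraries held 13.5 to 24.8 M read pairs in regions, H3K4me3 3.43 to 5.81 M and input 1.39 to 1.83 M. CUT&Tag values were CPM per peak, as deposited.

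Gene starts came from GENCODE 44. Benjamini-Hochberg adjustment ran over all genes or regions. The limma step and the edgeR step of each mark were tested on simulated data. The changed features there averaged more reads than IDO1, KMO or KYNU in RNA, and the interaction was not simulated. Members and lists were chosen with earlier results of these data known. Besides the 9 members, up to 4 called genes per list and comparison (smallest adjusted p) and the 3 most correlated genes per fallen member were named. Within an assay, same-numbered libraries of different lines did not deviate together (correlations -0.105 to 0.0226), so numbers were not used to pair them. With so few libraries this cannot exclude a pairing, and pairing between antibodies or with input was not checked. Alternatives were DESeq2 1.42.0, edgeR, other scaling, filters, pseudocounts and windows, and each library left out.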

Additional observations from a re-analysis of the deposited data

Results flagged for a closer look

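The effects of DDC and SLC6A4 differed in a direct test for 12 results, each given as the DDC change minus the SLC6A4 change on the log2 scale. In RNA these were IDO1 (1.29) and KMO (-1.27, limma). Against EV, KMO fell in DDC, while its SLC6A4 change (0.12, SE 0.22) did not pass. The sign of that change turned without EV replicate 1 (-0.07). For H3K4me3Q5ser they were IDO1 (0.64), KMO (0.62), KYAT3 (0.35), KYAT1 (-0.27) and AFMID (-0.44, edgeR). AFMID was lower than EV in DDC and higher in SLC6A4. For H3K4me3 they were KYAT3 (0.77), IDO1 (0.53), KMO (0.51), KYAT1 (-0.28) and AFMID (-0.48). KMO's sign in RNA was opposite to its sign for both marks. A difference at a region was common over the genome, at 76.9% of all regions for H3K4me3Q5ser and 60.2% for H3K4me3.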

How the results depend on the processing

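IDO1, KMO and KYNU kept their direction against EV in each alternative run, except KMO RNA in SLC6A4, which was not called. With DESeq2 on recovered reads, 1 member was called in DDC against EV, KYNU, in place of 3, and 1 in DDC against SLC6A4 in place of 2 (IDO1 had no adjusted p there). Without the filter on low values 1 was called in the latter, and leaving out a library gave 1 to 2. DESeq2 called 1470 genes in DDC and 1686 in SLC6A4 against 2281 and 2579 with limma, and 1633 regions for H3K4me3 in DDC against 3345 with edgeR. Signs turned for small changes that did not pass: KYAT1 in DDC by library size scaling (-0.0107, where the median of all genes moved to -0.12), and KYAT3's interaction in SLC6A4 by total read pairs (-0.0029), a scaling that also lost KYAT1's call and gained AFMID's there. Leaving out a library gave -0.045 to 0.277 for AFMID and -0.0158 to 0.303 for KYAT1 in DDC, -0.0682 to 0.0385 for AFMID and -0.0723 to 0.309 for KMO in SLC6A4, and -0.0212 to 0.298 for AFMID between the lines. The cause was not tested.

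With the replicate number as a block, the calls numbered 3, 2 and 2 for RNA (DDC, SLC6A4, direct), 5, 5 and 5 for H3K4me3Q5ser, 1, 5 and 5 for H3K4me3, and 4 and 3 for the interaction, as without it; among other genes it lost SLC3A2 in SLC6A4. Gene record starts, an alternative chosen after seeing the data, drop the IDO1 region, which lies at the canonical start 11616 bp away. IDO1, KMO and KYNU rest on few reads, and the smallest change this depth can show was not measured.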
